A study of Drosophila melanogaster with 6 samples.

Results

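The expression of 39 genes of synaptic transmission, neuronal excitability and glia was examined in the heads of adult Drosophila whose mothers had eaten either a normal or a high-sugar diet. The genes were picked by name for what their products do, with no threshold on their values. They comprised 13 genes of synaptic vesicle fusion and the active zone, 5 of vesicle endocytosis, 9 of voltage-gated and calcium-activated ion channels, 5 of the synthesis and vesicular transport of acetylcholine, GABA and glutamate, the pan-neuronal genes elav and futsch, and 5 glial genes. All 39 were among the 17545 genes of the count tables, and the symbol of each matched its locus tag in RefSeq's table of Release 6 of the fly genome.

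The study asked which genes differ in expression in offspring of flies exposed to a high-sugar diet (HSD). The mothers of the control flies (ND) were fed normal food with 10% sucrose from egg to adult, and the mothers of the HSD-F1 flies were fed food with 20% sucrose over the same span. According to the study, HSD-F1 flies came from matings of flies raised on the high-sugar diet. Its description does not limit that exposure to the mothers. HSD-F1 flies were themselves moved to the normal diet as embryos. All flies were 5 days old, and the study used females. The labels give every library the genotype W+VDRC, while the study names its wild type as Canton-S, and the strain is therefore not settled here. Each group had 3 libraries of polyadenylated RNA, each from a pool of heads.

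At a chemical synapse, an action potential carried by voltage-gated sodium and potassium channels opens presynaptic calcium channels, and calcium triggers the fusion of vesicles that have been docked and primed at the active zone. SNARE proteins on the vesicle and the plasma membrane form the fusion machine, and clathrin, dynamin and their partners then recover the vesicle membrane for the next round of release. Glia surround these contacts, clear glutamate from the cleft and convert it to glutamine. Several of these proteins were first known from fly mutants that shake under ether or become paralysed when warmed, among them those of Sh, para, shi and comt.

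No member was called as changed between ND and HSD-F1. Of the 38 members that could be tested, 22 had a positive and 16 a negative log2 fold change, and the values ran from -0.30 for Cadps to 0.34 for para, around a median of 0.01. The median over all 12048 genes tested was -0.00. The quasi-likelihood test of edgeR gave no member an adjusted p-value under 0.05, where 0.0664% of all genes were called. No member met the study's rule of an unadjusted p-value under 0.05 with a 1.5-fold change, by which 1.81% of all genes were called (1.14% higher and 0.672% lower). DESeq2 and limma-voom also called no member at the adjusted threshold. At an unadjusted p-value under 0.05 without a fold limit, edgeR counted 3 members (para, Cadps and unc-13), or 7.89%, beside 5.07% of all genes, while DESeq2 counted 5 and limma-voom 4. The 1 higher member stood beside 2.91% of all genes and the 2 lower ones beside 2.16%. These shares are close to the background and are no result about the members. In bulk heads, fewer cells of a type and less RNA per cell cannot be told apart.

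Read depth and libraries that stood apart bear on these comparisons. The libraries held from 20266352 to 26190694 counts, with the fewest in HSD-F1 replicate 1. The members took between 1.61% and 1.81% of a library, and the lowest count of a tested member in any library was 880, for repo. The expression of a gene is given as CPM, its count scaled to a fixed total per library with the trimmed mean of M-values (TMM). Values in every library are listed in the order of replicates 1, 2 and 3, and positions are those of the count tables on Release 6. ND replicate 3 held more transcripts of ovary and egg genes than the other libraries. Their summed CPM over 29 listed genes was 132 there, against 17.4 to 39.5 elsewhere. The eggshell gene Cp36 was at 25.7 CPM in ND replicate 3, 4.83 CPM in HSD-F1 replicate 3 and at most 0.20 CPM in the other 4 libraries. The defining markers of neurons (elav, nSyb, brp, Syt1), glia (repo, alrm, Eaat1, nrv2) and photoreceptors were present in all 6 libraries. The part of ovary RNA in the values below was not tested. Values without ND replicate 3 are given below for some members only.

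**Figure D1:**
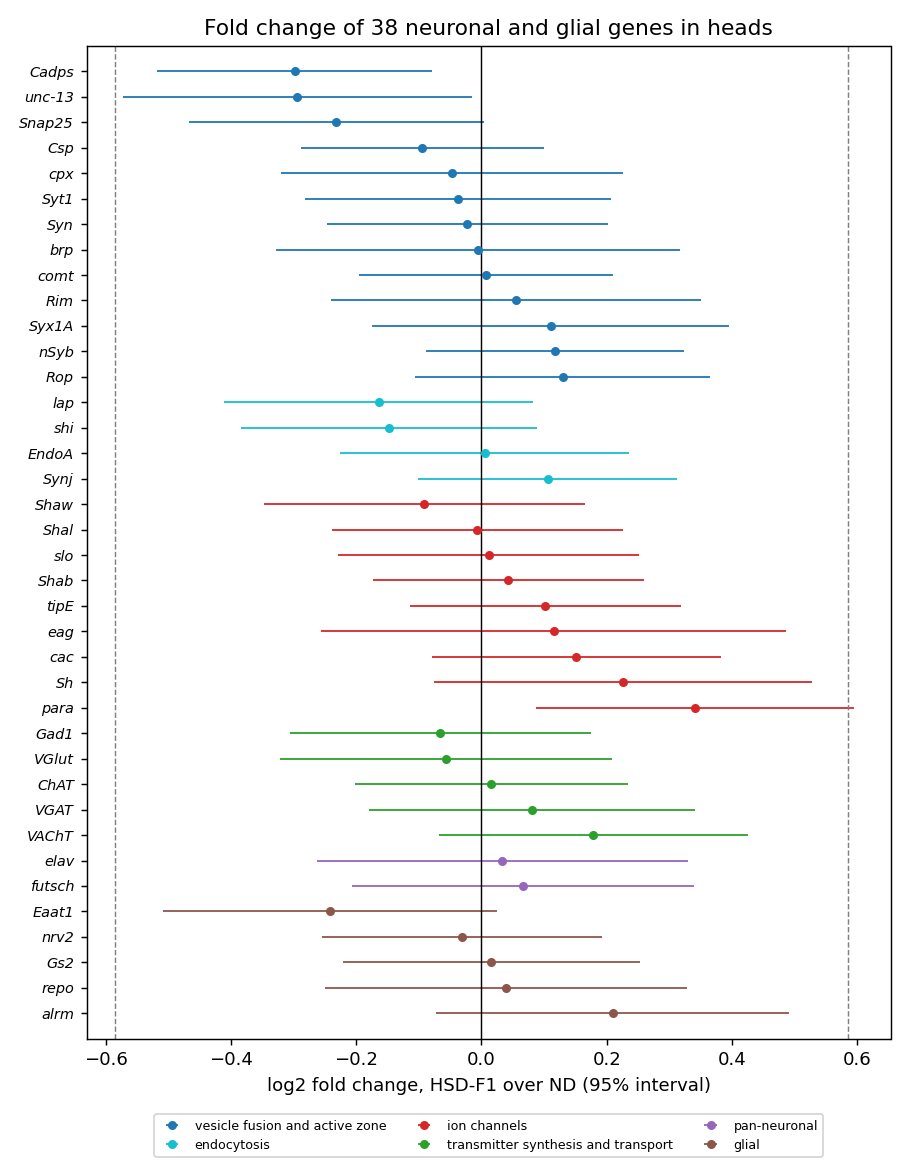
Fitted log2 fold change of the 38 tested members, HSD-F1 over ND, with 95% intervals, sorted within each role group and coloured by role. The x axis is in log2 units, the solid line marks no difference and the dashed lines mark 1.5-fold. Of the 38 intervals only that of para, which ends at 0.60, passes a dashed line.

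The data were precise enough to bound most of these differences. The median standard error of the log2 fold changes was 0.11 among the members and 0.14 among all genes. For 37 of the 38 tested members the 95% interval lay wholly within a 1.5-fold change in either direction, which held for 61.9% of all genes. The exception was para, whose interval reached 1.51-fold. The members were highly expressed, with a median of 293 CPM over the 6 libraries against 15.5 CPM for all genes. An absolute log2 fold change under 0.2 was found for 31 members, or 81.6%, and for 67.9% of all genes.

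The 39th member, stnB (Dmel_CG12473), could not be measured. It encodes a stonin, an adaptor that sorts synaptotagmin during endocytosis, and it is transcribed with stnA as a single dicistronic message from the X chromosome. The count tables gave stnB 0 counts in every library, and stnA as well. All 8332 exonic bases listed for stnB are also listed for stnA. In the tables as a whole, none of the 503 genes whose exons lay entirely within a gene on the same strand had a count, nor did any of the 139 genes covered only by a gene on the opposite strand, while 86% of the 11941 genes without a shared exonic base had one. Reads from bases shared by several genes were thus left out of the tables on both strands, and the 0 of stnB is a result of the counting and says nothing of its expression.

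This counting touched 10 other members in part. Shared bases made up 34.2% of the exons of elav (with lncRNA:enrr and arg), 19.0% of tipE (with CG18675), 18.7% of unc-13 (with asRNA:CR43425 and asRNA:CR44029), 15.1% of ChAT and 8.54% of VAChT (with each other) and 10.7% of Syx1A (with eIF4EHP), and smaller parts of Syn, VGlut, futsch and repo. Fold changes compare the same bases in all libraries, but the levels of these genes are understated.

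Among the 13 genes of vesicle fusion and the active zone, 5 log2 fold changes were positive and 8 negative, with a median of -0.02. The SNARE proteins are nSyb on the vesicle and Snap25 and Syx1A on the plasma membrane. The gene nSyb (Dmel_CG17248, chr3L:1630348-1637752) was at 1024, 1052 and 1022 CPM in the ND libraries and at 1115, 1103 and 1144 CPM in the HSD-F1 libraries. All 3 HSD-F1 libraries lay above all 3 ND libraries, by a small margin relative to the level. Its log2 fold change was 0.12 (SE 0.09, 95% interval -0.09 to 0.32), with an unadjusted p of 0.225 in edgeR's test.

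The membrane SNARE gene Snap25 (Dmel_CG40452, chr3L:24074180-24299205) was at 528, 479 and 493 CPM in the ND libraries and at 386, 448 and 443 CPM in the HSD-F1 libraries. Every HSD-F1 library was below every ND library, and HSD-F1 replicate 1 was lowest. The log2 fold change was -0.23 (SE 0.10, 95% interval -0.47 to 0.00), with an unadjusted p of 0.0535 and an adjusted p of 0.911 in edgeR's test. The unadjusted p was under 0.05 in 5 of 16 alternative analyses. Syx1A (Dmel_CG31136), the remaining SNARE gene, averaged 113 ± 3.70 CPM in ND against 122 ± 20.5 CPM in HSD-F1 (SD, n = 3), with a log2 fold change of 0.11 (SE 0.12).

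nSyb and Snap25, whose products bind each other in the fusion complex, thus differed in sign. The ratio of Snap25 to nSyb CPM was 0.516, 0.455 and 0.483 in ND, against 0.347, 0.407 and 0.387 in HSD-F1. The groups did not overlap in this ratio, which was chosen after the values of both genes were seen and has no test.

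The genes that prepare vesicles for fusion included both members with the most negative log2 fold changes. Cadps encodes CAPS, a priming factor known above all from dense-core vesicles, which carry neuropeptides. Cadps (Dmel_CG33653, chr4:1230837-1271759) was at 502, 451 and 498 CPM in the ND libraries and at 382, 411 and 388 CPM in the HSD-F1 libraries. The ND and HSD-F1 libraries were separate, with 40.4 CPM between the nearest ones. The mean was 484 ± 28.2 CPM in ND against 393 ± 15.3 CPM in HSD-F1 (SD, n = 3), a fold of 0.813 (95% interval 0.699 to 0.947). The edgeR test gave a log2 fold change of -0.30 (SE 0.10), an unadjusted p of 0.0138 and an adjusted p of 0.911. The exact permutation test of CPM gave p = 0.1, the smallest value that 3 against 3 libraries allow. Over 16 alternative analyses the log2 fold change of Cadps ran from -0.35 to -0.26, and its unadjusted edgeR p passed 0.05 without ND replicate 1 (0.0583) and with replicates 1 and 2 of each group only (0.0660).

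The gene unc-13 encodes the factor that opens syntaxin and primes synaptic vesicles at the active zone. It lies at chr4:867824-912331 (unc-13, Dmel_CG2999), on the same chromosome as Cadps. unc-13 was at 701, 574 and 756 CPM in the ND libraries and at 539, 541 and 577 CPM in the HSD-F1 libraries. ND replicate 2 lay within the HSD-F1 values, whereas ND replicates 1 and 3 lay above them. The log2 fold change was -0.29 (SE 0.12, 95% interval -0.57 to -0.02), with an unadjusted p of 0.0408 and an adjusted p of 0.911 in edgeR's test, and p = 0.2 in the exact permutation test. Without ND replicate 3, the library with the ovary transcripts, it was -0.21 with an unadjusted edgeR p of 0.149, and the p was also above 0.05 without ND replicate 1 (0.115), HSD-F1 replicate 1 (0.0695) or HSD-F1 replicate 2 (0.0946).

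The chaperone gene Csp, whose cysteine-string protein sits on vesicles and keeps SNAP-25 folded, showed a small shift with little spread. Csp (Dmel_CG6395, chr3L:22267382-22273745) was at 299.6, 297.5 and 296.8 CPM in ND and at 285, 279.8 and 272.5 CPM in HSD-F1. The 3 HSD-F1 values were all below the ND values, which spanned 2.78 CPM. For Csp the log2 fold change was -0.09 (SE 0.09, 95% interval -0.29 to 0.10), with an unadjusted p of 0.297 in edgeR's test, which shares its estimate of spread among genes.

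The other 8 fusion and active zone genes had log2 fold changes between -0.05 and 0.13, and each had a 95% interval that included 0. They were Rop, the Sec1/Munc18 partner of syntaxin (0.13), the active zone scaffold genes Rim (0.05) and brp (-0.01), comt, the ATPase that takes SNARE complexes apart (0.01), the vesicle-tethering synapsin gene Syn (-0.02), Syt1, the calcium sensor of release (-0.04), and cpx, a clamp on SNARE complexes (-0.05), beside Syx1A above. The calcium sensor Syt1 averaged 1010 ± 19.8 CPM in ND against 984 ± 97.4 CPM in HSD-F1, and cpx averaged 2708 ± 56.9 CPM and 2622 ± 343 CPM (SD, n = 3). The scaffold gene brp averaged 320 ± 8.63 CPM in ND against 319 ± 61.9 CPM in HSD-F1, with the larger spread in HSD-F1.

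**Figure D2:**
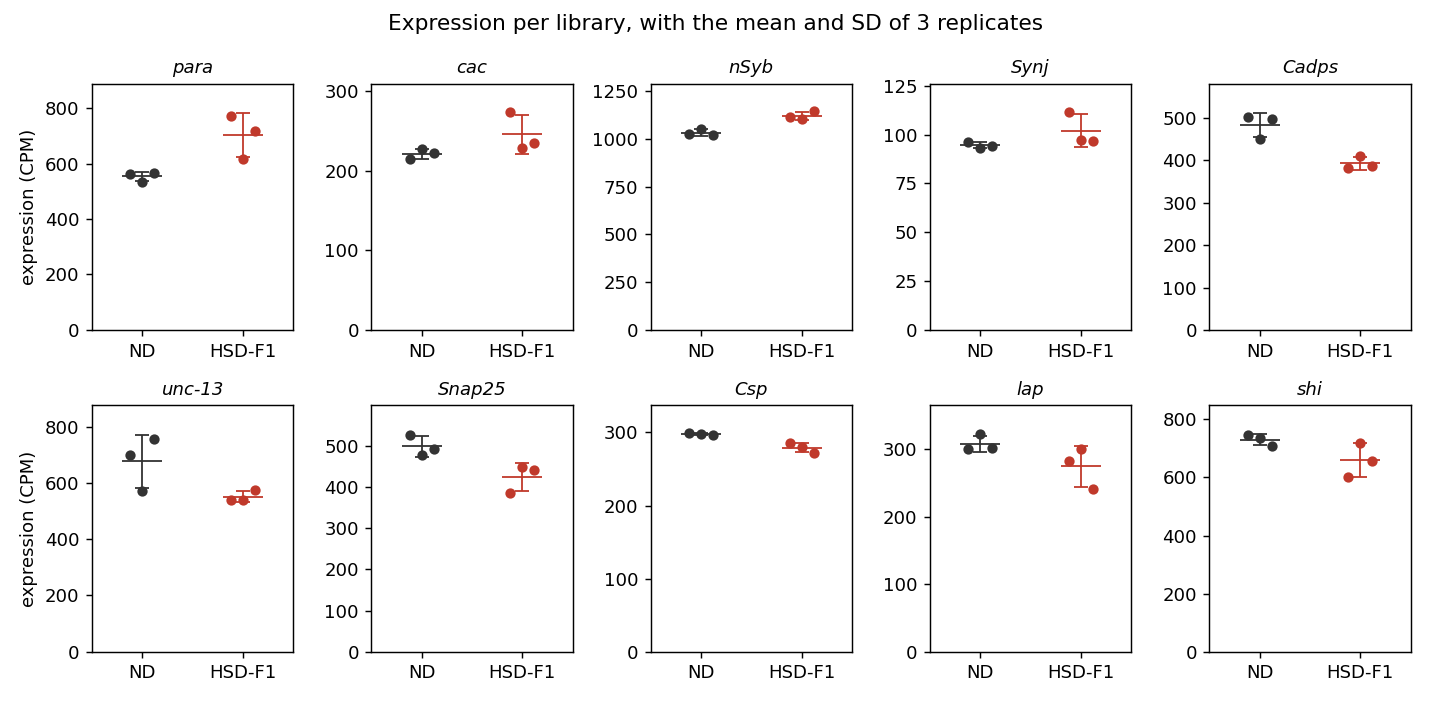
Expression in each library of 10 members, in CPM on an axis that starts at 0, with a point for each library and the mean and SD of 3 replicates per group. The upper row shows para, cac, nSyb, Synj and Cadps and the lower row unc-13, Snap25, Csp, lap and shi. Groups do not overlap for 8 of them, and they overlap for unc-13 and shi.

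Over the 4 endocytosis genes that were tested, the median log2 fold change was -0.07, and -0.0094 without HSD-F1 replicate 3. The dynamin gene shi, whose product pinches vesicles off the membrane, had the highest level per length of this group. shi (Dmel_CG18102, chrX:15892116-15906716) was at 746, 736 and 709 CPM in ND and at 600.4, 720 and 658 CPM in HSD-F1. HSD-F1 replicate 2 lay among the ND libraries and the other 2 HSD-F1 libraries were lower. For shi the log2 fold change was -0.15 (SE 0.10, 95% interval -0.38 to 0.09), with an unadjusted edgeR p of 0.188, and the value was -0.08 without HSD-F1 replicate 1.

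The clathrin adaptor gene lap, the fly homolog of AP180, sets vesicle size. lap (Dmel_CG2520, chr3R:7186994-7200941) was at 301, 322 and 301 CPM in ND and at 284, 300.0 and 241 CPM in HSD-F1. The groups were separate, but by 1.04 CPM between ND replicate 1 and HSD-F1 replicate 2. The log2 fold change was -0.16 (SE 0.11, 95% interval -0.41 to 0.08), and -0.08 without HSD-F1 replicate 3.

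Synj (Dmel_CG6562), on chromosome arm 2R, encodes synaptojanin, a lipid phosphatase that helps to shed the clathrin coat. Synj was at 96.5, 93.4 and 94.3 CPM in ND and at 112, 97.3 and 96.8 CPM in HSD-F1. All HSD-F1 values were above all ND values, but by 0.32 CPM between ND replicate 1 and HSD-F1 replicate 3, and HSD-F1 replicate 1 was the highest. The log2 fold change was 0.11 (SE 0.09, 95% interval -0.10 to 0.31), with an unadjusted edgeR p of 0.274, and it was 0.04 without HSD-F1 replicate 1. EndoA, the membrane-bending partner of synaptojanin, averaged 295 ± 3.56 CPM in ND against 296 ± 28.5 CPM in HSD-F1 (SD, n = 3).

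Of the 9 ion channel genes, 7 had positive log2 fold changes, and their median was 0.10. This median rested on HSD-F1 replicate 1 and was -0.01 without it. The largest value of all members belonged to para, the only gene for a classical voltage-gated sodium channel in the fly. para (Dmel_CG9907, chrX:16455027-16533096) was at 562, 535 and 565 CPM in the ND libraries and at 773, 616 and 716 CPM in the HSD-F1 libraries. All 3 HSD-F1 libraries were above all ND libraries, and replicate 2 was the nearest to them.

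The mean of para was 554 ± 16.3 CPM in ND against 702 ± 79.2 CPM in HSD-F1 (SD, n = 3), a fold of 1.27 (95% interval 1.06 to 1.51). In edgeR's test the log2 fold change was 0.34 (SE 0.11), the unadjusted p 0.0145 and the adjusted p 0.911, and the exact permutation test of CPM gave its smallest possible p of 0.1. Over 16 alternative analyses the log2 fold change of para ran from 0.27 to 0.42. Its unadjusted p was above 0.05 in 2 of them, at 0.0601 without ND replicate 2 and 0.0518 with replicates 1 and 2 of each group only. tipE, an auxiliary subunit that raises sodium currents through the Para channel, averaged 44.9 ± 1.35 CPM in ND against 48.2 ± 3.71 CPM in HSD-F1, with a log2 fold change of 0.10 (SE 0.09).

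The calcium channel gene cac encodes the channel that gates release at the active zone. cac (Dmel_CG43368, chrX:11931280-11985087) was at 214, 227 and 222 CPM in the ND libraries and at 273, 229 and 235 CPM in the HSD-F1 libraries. The groups did not overlap, though HSD-F1 replicate 2 was 1.51 CPM above ND replicate 2. This gave a log2 fold change of 0.15 (SE 0.10, 95% interval -0.08 to 0.38), and one of 0.07 without HSD-F1 replicate 1.

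For the 6 potassium channel genes the median was 0.03, which was -0.08 without HSD-F1 replicate 1. The calcium-activated channel gene slo, which had the highest level per length among the channels, served as their example. slo (Dmel_CG10693, chr3R:24662491-24711595) was at 452, 458 and 465 CPM in the ND libraries and at 517, 435 and 434 CPM in the HSD-F1 libraries. HSD-F1 replicate 1 was above and replicates 2 and 3 were below every ND library, and the log2 fold change was 0.01 (SE 0.10). The A-type channel gene Sh had a log2 fold change of 0.23 (SE 0.13, 95% interval -0.08 to 0.53), with means of 730.0 ± 44.9 CPM in ND against 854 ± 139 CPM in HSD-F1. Without HSD-F1 replicate 1 the value of Sh was 0.09. The others were eag (0.12), a repolarising channel whose mutants shake, and the delayed rectifier and A-type channels Shab (0.04), Shal (-0.01) and Shaw (-0.09). The value of eag was -0.09 without HSD-F1 replicate 1 and 0.03 without ND replicate 3.

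The 5 genes of transmitter synthesis and transport had log2 fold changes between -0.07 and 0.18. Gad1, the enzyme that makes GABA, had the highest level per length of these. Gad1 (Dmel_CG14994, chr3L:4074077-4088744) was at 589, 620.2 and 537 CPM in ND and at 526, 600.2 and 542 CPM in HSD-F1. The groups overlapped, and the log2 fold change was -0.07 (SE 0.10, 95% interval -0.31 to 0.17). The vesicular GABA transporter gene VGAT had a log2 fold change of 0.08 (SE 0.11), and one of 0.02 without ND replicate 3. The vesicular glutamate transporter gene VGlut had one of -0.06 (SE 0.12).

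Acetylcholine, the main excitatory transmitter of the fly brain, depends on a single locus in which VAChT, the vesicular transporter gene, lies inside the ChAT gene for the synthesising enzyme. VAChT had a log2 fold change of 0.18 (SE 0.11, 95% interval -0.07 to 0.43) and ChAT one of 0.02 (SE 0.10, 95% interval -0.20 to 0.23). The ratio of ChAT to VAChT CPM was 0.447, 0.429 and 0.431 in ND and 0.331, 0.469 and 0.383 in HSD-F1. HSD-F1 replicate 2 was above and the other 2 HSD-F1 libraries were below the ND libraries. Reads in the 606 exonic bases that these genes share were not counted for either.

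The pan-neuronal genes elav, an RNA-binding protein used to mark neurons, and futsch, a microtubule-associated protein of axons, bear on how much neuronal RNA each library held. futsch (Dmel_CG34387, chrX:1409069-1453686) was at 402, 385 and 399.9 CPM in the ND libraries and at 481, 394 and 368 CPM in the HSD-F1 libraries. HSD-F1 replicate 1 was the highest and replicate 3 the lowest of the 6 libraries, so the HSD-F1 values enclosed those of ND. Its log2 fold change was 0.07 (SE 0.12), and that of elav was 0.03 (SE 0.13). elav was likewise highest in HSD-F1 replicate 1 at 98.5 CPM and lowest in replicate 3 at 70.8 CPM.

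Among the glial genes the median log2 fold change was 0.02. Gs2 encodes glutamine synthetase, which turns glutamate taken up by glia into glutamine, and was the most highly expressed member per length. Gs2 (Dmel_CG1743, chrX:11422832-11430197) was at 2038, 2025 and 1945 CPM in the ND libraries and at 1858, 2017 and 2198 CPM in the HSD-F1 libraries. As for futsch, the HSD-F1 libraries enclosed the ND libraries, but here replicate 1 was lowest and replicate 3 highest. The log2 fold change was 0.02 (SE 0.10, 95% interval -0.22 to 0.25).

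The glial glutamate transporter gene Eaat1 averaged 569 ± 28.9 CPM in ND against 481 ± 61.1 CPM in HSD-F1 (SD, n = 3). Its log2 fold change was -0.24 (SE 0.12, 95% interval -0.51 to 0.03), and the groups overlapped, with an unadjusted p of 0.0706 in edgeR's test. The astrocyte gene alrm had a log2 fold change of 0.21 (SE 0.12, 95% interval -0.07 to 0.49), opposite in sign to Eaat1, which is also expressed by astrocytes, but 0.07 without HSD-F1 replicate 1. repo, the transcription factor that marks nearly all lateral glia, and nrv2, a sodium pump subunit, had log2 fold changes of 0.04 and -0.03. The glial members therefore gave no common direction.

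The balance of neuronal to glial transcripts was compared as the log2 ratio of the summed CPM of the neuronal members to that of the glial members. It was 2.04, 1.98 and 2.08 in ND, against 2.24, 2.01 and 1.92 in HSD-F1. The means were 2.04 ± 0.05 and 2.06 ± 0.17 (SD, n = 3), and the HSD-F1 libraries lay on both sides of the ND libraries. Gs2 supplied between 57.5% and 63.7% of the glial sum, and without it the ratio differed between the group means by 0.09. With the medians of the members' log2 CPM in place of the sums, the values were -0.92, -1.01 and -0.87 in ND. In HSD-F1 they were -0.43, -0.94 and -0.75. The group means differed by 0.22, again with HSD-F1 replicate 1 the highest, and HSD-F1 replicate 2 lay among the ND libraries. The median exonic length was 5803 bases for the neuronal and 2996 for the glial members, and the part of length in this balance was not tested.

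**Figure D3:**
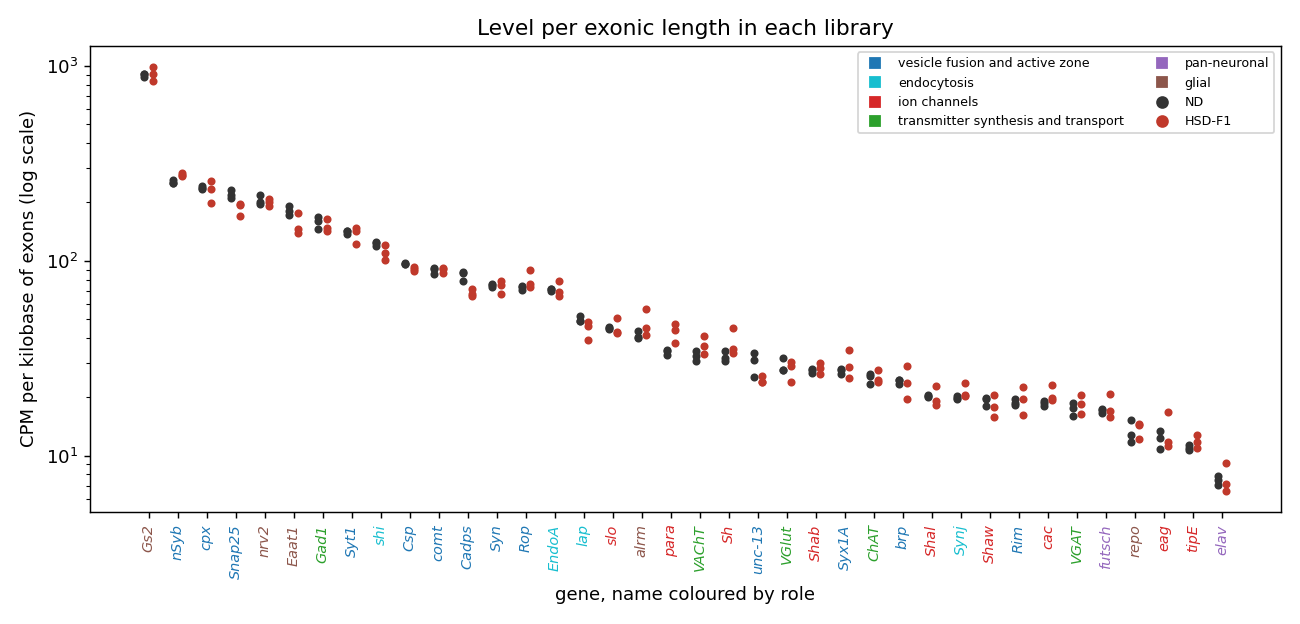
Level of the 38 tested members in each library as CPM per kilobase of exons, on a log axis, ordered by the ND mean, with gene names coloured by role, ND in black and HSD-F1 in red. Gs2 is highest at 898 and elav lowest at 7.48 CPM per kilobase in ND.

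Levels were compared between genes per kilobase of exons. In ND, the mean was 898 CPM per kilobase for Gs2, 254 for nSyb, 237 for cpx, 219 for Snap25, 204 for nrv2, 181 for Eaat1 and 158 for Gad1. At the other end were repo with 13.3, eag with 12.2, tipE with 10.98 and elav with 7.48 CPM per kilobase, so that the highest level was 120 times the lowest. Of the 37 neighbouring pairs in this order, 17 did not overlap between the 3 ND libraries and 20 did. Snap25 and nrv2 overlapped in this way, as did all neighbours from para down to brp. The fusion genes spanned the range from nSyb to Rim (18.7), while every channel gene lay at or below slo (45.1). With only the exonic bases that no other gene shares, elav remained the lowest at 11.4 CPM per kilobase, and no member moved by more than 3 places, the largest move being that of unc-13. In HSD-F1 no member moved by more than 4 places.

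The members varied little among the ND libraries and more among the HSD-F1 libraries. The median SD of a member's log2 CPM was 0.05 among the ND libraries and 0.15 among the HSD-F1 libraries, while it was 0.10 and 0.17 over the 9417 genes with a mean of at least 1 CPM. Replicates 1 and 3 of HSD-F1 lay at opposite ends. HSD-F1 replicate 1 was the highest of the 6 libraries for 23 of the 38 members, and HSD-F1 replicate 3 the lowest for 17, whereas each held these places for 25.1% and 25.2% of all genes. Groups that do not overlap were found for 8 members, 4 higher in HSD-F1 (nSyb, Synj, para and cac) and 4 lower (Snap25, Csp, Cadps and lap), beside 11.8% of all genes tested (6.67% higher and 5.17% lower).

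**Figure D4:**
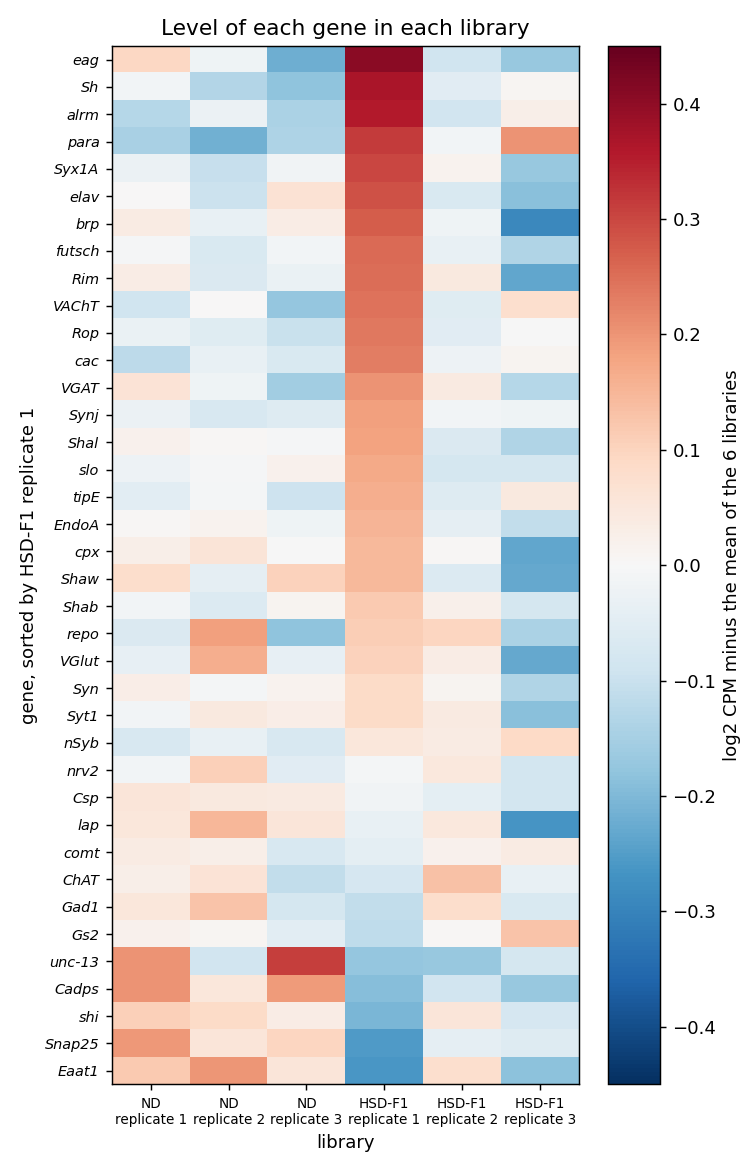
Deviation of log2 CPM from the mean of the 6 libraries for each tested member (rows) in each library (columns), on a colour scale from -0.45 (blue) to 0.45 (red), with rows sorted by HSD-F1 replicate 1. The column of HSD-F1 replicate 1 runs from 0.41 for eag to -0.26 for Eaat1, and 23 of 38 members are highest there.

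The members that were highest in HSD-F1 replicate 1 relative to the mean of the 6 libraries were eag (by 0.41 on the log2 scale), Sh (0.37), alrm (0.36) and para (0.31). Eaat1 (-0.26), Snap25 (-0.25), shi (-0.21), Cadps (-0.19) and unc-13 (-0.18) were lowest there. Long genes moved with this library. The 12 members with at least 10000 exonic bases had a median deviation of 0.25 in HSD-F1 replicate 1 and -0.11 in replicate 3, and the 18 members under 5000 bases had medians of 0.08 and -0.06. Over all genes, those of at least 10000 bases had medians of 0.16 and -0.16 in these libraries. The shortest of all genes had medians of -0.06 and 0.12. These were taken with a lower length limit than the short members and are not compared with them. HSD-F1 replicate 1 also had the fewest counts. Without it the log2 fold changes of Rop, Syx1A, tipE and VAChT were 0.04, -0.03, 0.04 and 0.10. The part of transcript length and depth in the members' values was not tested. para (16309 exonic bases) had a log2 fold change of 0.27 with an unadjusted edgeR p of 0.0295 without HSD-F1 replicate 1.

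**Figure D5:**
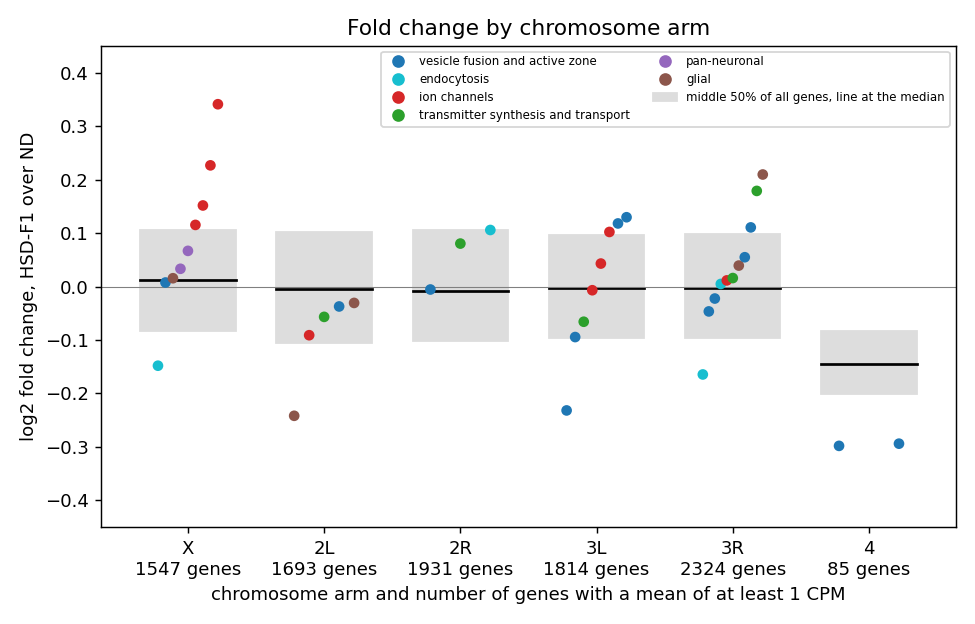
Fitted log2 fold change of the tested members (points, coloured by role) by chromosome arm, over the middle 50% of all genes with a mean of at least 1 CPM on that arm (grey box, with a line at the median). Both members on chromosome 4, Cadps and unc-13, lie below the box of that chromosome, whose median is -0.14.

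The members with the most negative values, Cadps and unc-13, are the only members on chromosome 4, the small and largely heterochromatic dot chromosome of the fly. Genes of this chromosome were therefore examined after these values had been seen, and no test was made. Of the 85 chromosome 4 genes with a mean of at least 1 CPM, 74 had a negative and 11 a positive log2 fold change, and their median was -0.14, while the medians of the other arms ran from -0.01 to 0.01. The median of the 83 genes other than Cadps and unc-13 was also -0.14. Genes of chromosome 4 were longer, with a median of 4083 exonic bases against 2059 to 2436 on the other arms. Exonic length and log2 fold change had a Spearman correlation of -0.22 over 9417 genes and 0.10 over the 38 tested members. The part of length in the values of chromosome 4 was not tested. An unadjusted p under 0.05 was found for 10 of the 85, all of them lower in HSD-F1. Over all genes tested the share was 5.07%, with 2.16% lower. Cadps and unc-13, whose values prompted this look, are among the 10 and among the 74 with negative values. Cadps was the 5th and unc-13 the 6th lowest of the 85, and the 95% intervals of both include the median of the chromosome.

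The libraries were not cleanly separated in this respect. The median deviation of the chromosome 4 genes from their mean over 6 libraries was 0.10, 0.02 and 0.10 in ND, against 0.02, -0.06 and -0.15 in HSD-F1. ND replicate 2 and HSD-F1 replicate 1 overlapped. Over 16 alternative analyses the median log2 fold change of these genes ran from -0.19 to -0.07, the latter with replicates 1 and 2 of each group only. On the X chromosome, 8 of 9 tested members had positive values, with para, Sh, cac and eag the highest, and without HSD-F1 replicate 1 this held for 5 of 9. Of all 1547 X-linked genes with a mean of at least 1 CPM, 828 had positive values, and their median was 0.01. Positive values were held by 0 of 5 members on 2L, 2 of 3 on 2R, 4 of 8 on 3L and 8 of 11 on 3R. These counts also moved, to 3 of 5 on 2L without HSD-F1 replicate 3 and 3 of 11 on 3R without HSD-F1 replicate 1.

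Other genes of the same pathways, in lists chosen by role, also held no gene with an adjusted p under 0.05 in edgeR's test. Of 32 other vesicle and active zone genes, 11 had a positive and 21 a negative log2 fold change (median -0.04), and none had an unadjusted p under 0.05. The 16 tested genes of endocytosis beyond the members also gave none, with 5 positive and 11 negative values (median -0.04). Among 31 other ion channel genes, 13 positive and 18 negative (median -0.05), the 1 with an unadjusted p under 0.05 was Ca-alpha1D, an L-type calcium channel, at -0.27.

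Among 35 genes of transmitter receptors, uptake and breakdown, 17 positive and 18 negative (median -0.00), 2 had an unadjusted p under 0.05. These were the nicotinic receptor subunit gene nAChRalpha3 at 0.30 and the glutamate receptor gene Ekar, on chromosome 4, at -0.25. Of 17 other pan-neuronal genes, 8 had a positive and 9 a negative value (median -0.02). The 1 with an unadjusted p under 0.05 was fne, an RNA-binding relative of elav, at 0.34. Of 28 other glial genes, 8 had a positive and 20 a negative value (median -0.05), and the 1 was Mco1 at -0.49. These 5 genes were 3.21% of the 156 different genes tested in the 6 lists, beside 5.07% of all genes.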

How the data were processed

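Total RNA of fly heads was purified with oligo(dT) beads and sequenced by the authors with paired-end reads, which were mapped to the Drosophila genome and kept where unique. The authors deposited 1 table per library of unnormalized whole-number counts per gene. The submitters' processing notes name HISAT2 2.0.4, Bowtie2 2.2.5, RSEM 1.2.12 and DESeq2 1.4.5 without roles, and the program that made the count tables is not given in the sources used here. Locus tags, symbols and coordinates were checked against RefSeq (Release 6), where 17504 of 17545 genes were found. The members and lists were chosen with earlier results of these data known.

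The 12048 genes whose counts summed to at least 10 were scaled with TMM and compared with glmQLFit and glmQLFTest of edgeR 4.0.16 in R 4.3.3, with group as the only term and Benjamini-Hochberg adjustment over all of them. The 95% intervals came from the fitted coefficient, its standard error and the residual degrees of freedom. A two-sided exact permutation test over the libraries was run on the CPM of single members, whose smallest p is 0.1. Libraries are called biological replicates by the study. No gene had to be imputed and no library was dropped. At this depth 3 counts correspond to 0.114 to 0.148 CPM.

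Values in every library were given for members with an unadjusted p under 0.05, those whose groups did not overlap and the member with the highest level per length in each role group. Of other lists, genes with the smallest unadjusted p were named. Alternatives were size factors of the relative log expression method, library totals, other filters, DESeq2 1.42.0, voom of limma 3.58.1, robust dispersion, the replicate number as a block, the ovary score as a covariate, replicates 1 and 2 only and leaving out each library. Leaving Gs2 out of the ratio, the length of unshared exons and the counts by chromosome were added after seeing the data. Of the lists, Sv2, Syndapin and nos could not be matched. No sequences are shown, and reads and ChIP-seq were not used here.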

Additional observations from a re-analysis of the deposited data

How the results depend on the processing

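No member reached an adjusted p under 0.05, or the study's rule, under any of 16 alternatives. The number with an unadjusted p under 0.05 was 5 with DESeq2, between 1 and 4 when a library was left out and 0 with replicates 1 and 2 only. Cadps and para each missed 0.05 in 2 alternatives and unc-13 in 6, among them the ovary covariate (0.0663 in edgeR). Over all genes, the adjusted count moved from 8 to 28 with DESeq2, 5 with voom, 26 with the ovary covariate, 18 with replicates 1 and 2 only and between 4 and 21 when a library was left out. The count under the study's rule moved from 218 to 140 with DESeq2 and 119 when 10 counts were required in every library. The causes of these moves were not tested.

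When a library was left out, the median of the channel genes ran from -0.0071 (without HSD-F1 replicate 1) to 0.15, that of potassium channels from -0.082 (without HSD-F1 replicate 1) to 0.074, and that of endocytosis genes from -0.096 to -0.0094 (without HSD-F1 replicate 3). In the same way slo ran from -0.076 to 0.054 and futsch from -0.055 to 0.15, both negative without HSD-F1 replicate 1, and Gs2 from -0.047 (without HSD-F1 replicate 3) to 0.074. Gs2 was also negative without ND replicate 3, with replicates 1 and 2 only (-0.067) and with library totals (-0.013), as was slo with library totals (-0.016). The neuronal to glial difference was 0.22 with medians in place of sums.

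Whether replicate numbers pair the samples is not settled here. Over all genes, the deviations of libraries numbered 1, 2 and 3 correlated between the groups at 0.37, -0.05 and 0.37. ND replicate 1 and HSD-F1 replicate 3 correlated at -0.44, and ND replicate 3 and HSD-F1 replicate 1 at -0.34. Deviations were taken from the mean of each group, so positive and negative correlations depend on each other and are not separate evidence. Over the members, libraries numbered 1, 2 and 3 correlated at 0.09, 0.23 and 0.06. With a replicate block, 38 genes passed the adjusted threshold and no member did, and 3 members had an unadjusted p under 0.05.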

Other observations

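Genes of other head tissues were listed beside the neuronal and glial genes, and none of them had an adjusted p under 0.05 in edgeR's test. Of 13 head fat body genes, 1 had a positive and 12 a negative log2 fold change (median -0.16), and takeout (to), a circadian and feeding-related gene of the head fat body, was the 1 with an unadjusted p under 0.05, at -0.68. It was at 158, 113 and 76.3 CPM in ND replicates 1, 2 and 3 and at 78.4, 79.3 and 59.8 CPM in HSD-F1 replicates 1, 2 and 3, so that ND replicate 3 lay among the HSD-F1 values. Of 25 ovary and egg genes, 22 had negative values (median -0.86), and ND replicate 3 was the library with the most of their transcripts. Muscle genes had 11 positive and 10 negative values, with Act87E, an actin gene, the 1 at an unadjusted p under 0.05 (0.41). The 19 photoreceptor genes (median -0.02) and the 12 hemocyte genes (median 0.03) held none.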
